A study of Mus musculus with 33 samples.

Results

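Fabp7, Fabp5 and Fabp3 are the fatty-acid binding protein (FABP) genes of the brain, and their messenger RNA was followed here in bulk RNA sequencing of the mouse nucleus accumbens, a ventral striatal region, over 33 libraries in 6 groups. The 3 genes were taken by symbol from a count table of 24053 genes, and all 3 were among the 14602 that passed a filter on low counts. Fabp7 was selected on its measured level, which was low in the libraries of antibiotic-treated mice given morphine, so its values in comparisons that use those libraries are given as a description with no test. Fabp5 and Fabp3 were added as relatives, and no value of theirs entered that choice.

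All mice were C57BL/6J. Conventionally raised mice of 7 to 9 weeks were kept on plain water (H2O, their microbiome left normal) or on a drink (Abx) with vancomycin at 0.5 mg/mL, bacitracin at 0.5 mg/mL, neomycin at 2 mg/mL and the antifungal pimaricin at 1.2 µg/mL, from 2 weeks before the injections until the end. Age-matched germ-free mice (GF) were bred in isolators at a germ-free facility. Within each microbiome state the injections, given over 7 days, were saline or morphine at a daily 20 mg/kg. Each saline group had 6 libraries and each morphine group 5. A drink was assigned to whole cages, and GF mice also differ from the others in their breeding facility, which cannot be told apart from the microbiome. Nothing in the labels gives the cage, the sequencing batch or the hour of collection.

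Fatty-acid binding proteins are small cytoplasmic carriers that hold a long-chain fatty acid inside a barrel-shaped pocket and bring it to enzymes, membranes and nuclear receptors. In the adult brain FABP7 is known from astrocytes, radial glia and oligodendrocyte precursors and prefers polyunsaturated fatty acids. FABP5 is found in neurons and glia, carries endocannabinoids as well as fatty acids, and can deliver ligand to PPAR receptors. FABP3, the heart-type protein, is mainly neuronal in the adult brain and binds arachidonic acid.

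The promoters of Fabp7 and Fabp3 are shown because these genes were lowest in different groups. Each sequence is the 250 bases before the transcription start, from RefSeq, build GRCm38.p6, plus strand, 5′ to 3′, with capitals where a searched motif matched. That of Fabp7 lies at chr10:57784673-57784922 and that of Fabp3 at chr4:130308488-130308737.
Fabp7: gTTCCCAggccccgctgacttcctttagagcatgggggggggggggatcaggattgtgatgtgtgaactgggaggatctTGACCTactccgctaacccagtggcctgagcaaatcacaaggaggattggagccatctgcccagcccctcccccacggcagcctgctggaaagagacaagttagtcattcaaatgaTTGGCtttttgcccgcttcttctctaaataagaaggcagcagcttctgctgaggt
Fabp3: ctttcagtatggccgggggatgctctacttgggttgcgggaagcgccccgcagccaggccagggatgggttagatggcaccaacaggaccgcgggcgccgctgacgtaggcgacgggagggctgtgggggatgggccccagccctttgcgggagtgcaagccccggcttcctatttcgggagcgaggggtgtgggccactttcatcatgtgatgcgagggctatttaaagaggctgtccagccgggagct
The 5 motifs were searched on both strands, and no match overlapped another. In Fabp7 the core letters of RBPJ, the DNA-binding partner of Notch (TGGGAA, read on the minus strand), matched 249 to 244 bases before the start. The half-site of nuclear receptors (AGGTCA, minus strand) matched at 171 to 166 and a half-site of NFI factors (TTGGC, plus strand) at 55 to 51. These letters are in 21.6%, 14.0% and 41.5% of the 32851 promoters of the same length. An octamer of POU factors (ATGCAAAT, in 1.60%) and an E-box of the clock (CACGTG, in 6.02%) were not in the Fabp7 sequence, and none of the motifs was in the Fabp3 sequence. These matches describe letters only, and the base composition differed: 54.8% G and C in Fabp7 and 64.8% in Fabp3. No Fabp5 promoter is shown.

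Depth set the precision of each value. Between 4.87 and 15.3 M (mega) reads were counted per library. The 22 conventional libraries held 9.36 M to 15.3 M, and 10 of the 11 GF libraries held 4.87 M to 8.13 M. The exception, GF saline replicate 1, had 15.3 M reads. It stands apart from its group in depth and in its levels of cortical and of hypothalamic and pituitary markers, so values without it are given below. GF morphine replicate 5 stands apart too: 35.4% of its reads fell in no gene, the highest share of all libraries and against 22.1% to 27.0% in the rest of its group, and values without it are also given. Behind the levels stood 110 to 460 reads of Fabp7, 431 to 1591 of Fabp5 and 155 to 787 of Fabp3 per library. Markers of the labelled tissue were present throughout. The 12 tested markers of medium spiny neurons, the main neurons of this region, summed to 2960 to 9093 CPM per library. GF saline replicate 5 had the lowest mean log2 CPM of these markers (7.33). The same library had the highest mean of oligodendrocyte markers (8.96) and of hypothalamic and pituitary markers (3.51). CPM here is the count scaled to the library's total and its TMM factor.

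Across libraries Fabp5 was the most abundant of the 3 per length and Fabp7 the least. Divided by transcript length in kilobases (880 bases for Fabp7, 987 for Fabp5 and 823 for Fabp3), the level over all 33 libraries was 103 ± 13.9 CPM per kilobase for Fabp5, 49.1 ± 7.62 for Fabp3 and 25.2 ± 6.98 for Fabp7 (SD). In Abx morphine libraries the same order held, at 115 ± 5.76, 55.6 ± 4.67 and 12.3 ± 1.69 CPM per kilobase. Together the 3 genes held 99.7% of all reads of the 10 FABP genes in the table, and no other FABP gene passed the filter. Fabp4, the adipocyte and endothelial form, had 167 reads over all libraries. The liver form Fabp1 and the testis form Fabp9 had 0, and Pmp2, the form of peripheral myelin, had 10. Fabp3 and Fabp5 have processed pseudogenes of similar sequence in the mouse genome, and how reads shared with such copies were counted is not given in the sources used here, so their counts carry that uncertainty.

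Fabp7 stood lowest in Abx morphine mice. Its libraries there were at 9.92, 9.89, 11.7, 9.70 and 13.1 CPM, with 110 to 182 reads each. Abx saline libraries ran from 17.1 to 27.4 CPM with a median of 21.9. Every Abx morphine library lay under every library of the other 5 groups, whose lowest value was 16.9 CPM. H2O saline libraries ran from 23.7 to 29.4 CPM (median 25.3), and H2O morphine libraries stood at 25.0, 31.1, 26.5, 34.8 and 26.7 CPM. GF saline libraries ran from 20.7 to 25.0 CPM (median 23.0), and GF morphine libraries stood at 21.7, 16.9, 26.8, 21.9 and 20.0 CPM. In order of the mean the groups were H2O morphine (28.8 ± 4.02 CPM, SD, n = 5), H2O saline (26.2 ± 2.39, n = 6), GF saline (22.9 ± 1.72, n = 6), Abx saline (22.1 ± 3.88, n = 6), GF morphine (21.5 ± 3.60, n = 5) and Abx morphine (10.9 ± 1.48, n = 5). Neighbours in this order overlapped, except GF morphine and Abx morphine. In bulk tissue, fewer cells that express a gene and less RNA per cell cannot be told apart.

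**Figure D1:**
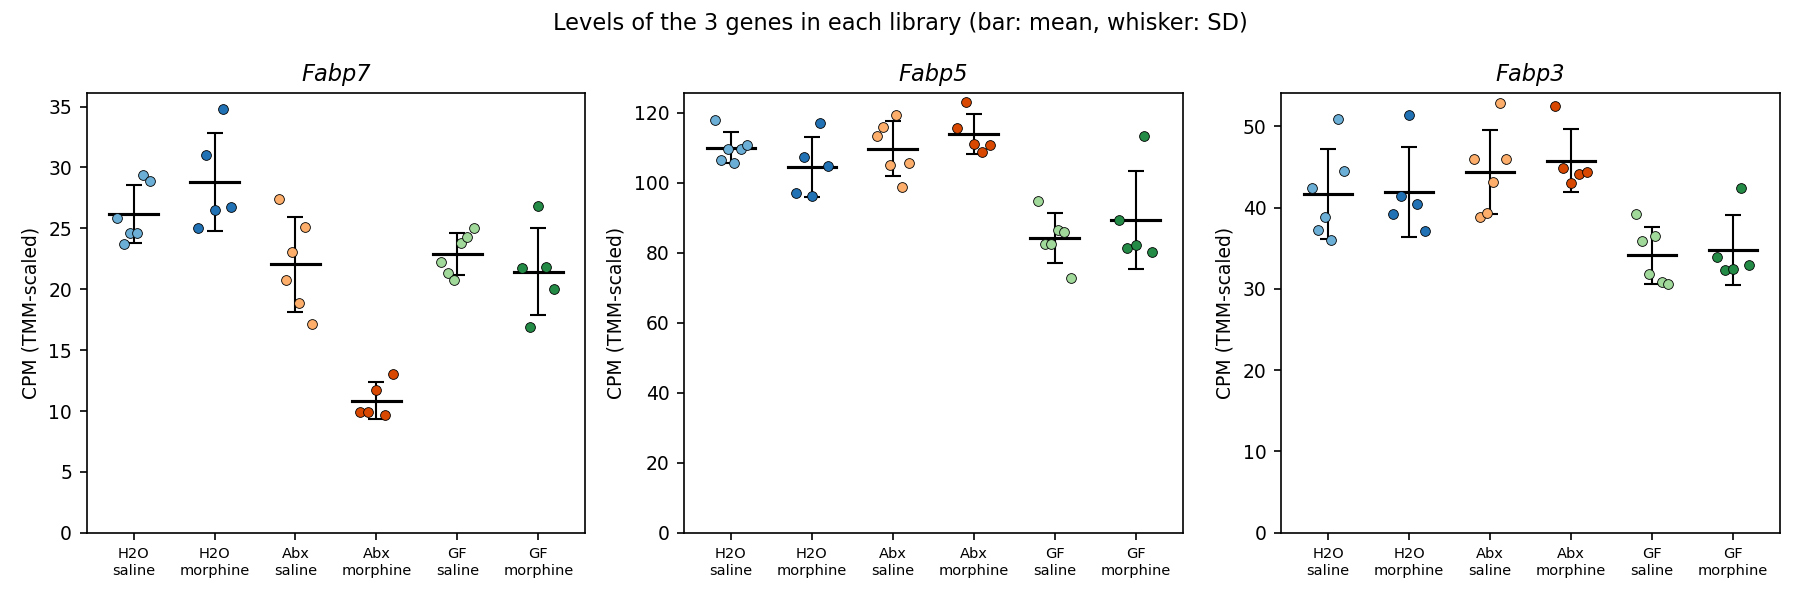
Level of Fabp7, Fabp5 and Fabp3 in each library (points), in CPM after TMM scaling, by group, with the group mean (bar) and SD (whisker). Fabp7 in Abx morphine mice lies at 9.70 to 13.1 CPM, below all other libraries, whereas Fabp5 and Fabp3 are lowest in the GF groups.

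The fitted difference of Fabp7 between morphine and saline in Abx mice was -1.02 ± 0.12 on the log2 scale (SE), a 2.02-fold lower level, and 5 of 5 libraries lay under the saline range. Only 17 of the 14602 tested genes had a lower fitted value in this comparison. In it, 5.37% of all genes were called at an adjusted p under 0.05, 3.25% as lower, and 3.59% lay wholly under the saline range. Between Abx and H2O mice given morphine the difference was -1.41 ± 0.12, 2.65-fold lower, with 6 genes lower still and 5 of 5 libraries under the H2O range, while 10.4% of all genes were called and 7.17% lay wholly under that range. GF morphine mice stood 0.98 ± 0.13 above Abx morphine mice, 1.97-fold, where 28.1% of genes were called. The response of Fabp7 to morphine was -1.16 ± 0.16 lower in Abx than in H2O mice, where 0.110% of genes were called, and 0.92 ± 0.17 higher in GF than in Abx mice, where 2.14% were. These 5 values share the libraries by which the gene was chosen and are not separate evidence.

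In the comparisons open to a test, Fabp7 was not called with morphine in H2O or GF mice, nor under saline. Morphine against saline was 0.14 ± 0.11 in H2O mice (95% interval -0.08 to 0.36, adjusted p = 0.562) and -0.09 ± 0.12 in GF mice (-0.33 to 0.15, adjusted p = 0.892), where 0% and 0.00685% of all genes were called. In these tests edgeR called 0 genes in H2O mice, with 2223 (15.2%) at an unadjusted p under 0.05, while DESeq2 called 332 and limma voom 1314. The responses to morphine in GF and H2O mice differed by -0.23 ± 0.16 (-0.56 to 0.10, adjusted p = 0.512, where edgeR called 0 genes, DESeq2 219 and limma voom 42, and 2327, or 15.9%, had an unadjusted p under 0.05). Against H2O saline mice, the level was -0.25 ± 0.11 in Abx saline mice (-0.47 to -0.03, adjusted p = 0.332, 4 of 6 libraries under the H2O range, 0.116% of genes called). In GF saline mice it was -0.19 ± 0.11 (-0.42 to 0.03, adjusted p = 0.164, 3 of 6, 32.9% called), or -0.19 without GF saline replicate 1. GF and Abx saline mice differed by 0.06 ± 0.11 (-0.17 to 0.28, adjusted p = 0.738, 27.3% called).

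The 1 tested comparison in which Fabp7 passed was GF against H2O mice under morphine. It was 1.34-fold lower in GF mice, at 21.5 ± 3.60 against 28.8 ± 4.02 CPM (-0.43 ± 0.12, adjusted p = 0.0300, 4 of 5 libraries under the H2O range), in a comparison in which 5.78% of genes were called and 2.48% were called lower. The call rests on single libraries. The adjusted p was 0.0853 without H2O morphine replicate 3 and 0.106 without replicate 5. It was 0.0861, 0.0638 and 0.0547 without GF morphine replicate 2, 5 and 6, 0.0865 in a fit of both groups alone and 0.0705 with a covariate of cortical markers.

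**Figure D2:**
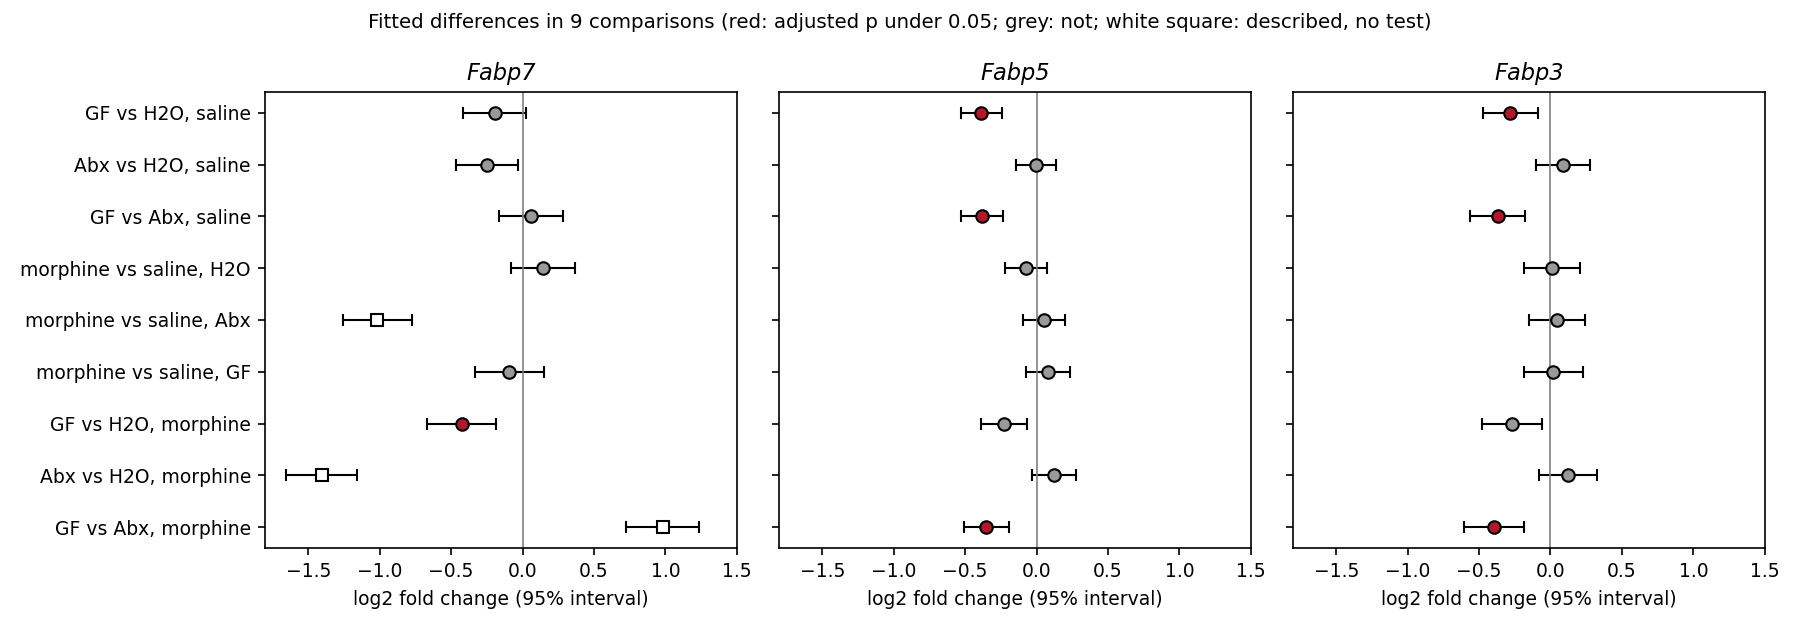
Fitted log2 fold change with its 95% interval (x axis) in 9 pairwise comparisons (rows) for each gene. Red points passed the test at an adjusted p under 0.05, and grey points did not. White squares are values that use the Abx morphine libraries for Fabp7, given with no test. Their intervals include the libraries by which Fabp7 was chosen and are not to be read against 0. For Fabp5 and Fabp3 every red point is a comparison of GF with other mice.

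Fabp7 is a gene of astrocytes, so it was set against 18 astrocyte markers, among them the water channel gene Aqp4, the glutamate transporter genes Slc1a2 and Slc1a3 and the connexin gene Gja1. All 18 were tested, none was at 0 in all libraries, and they summed to 5820 to 6519 CPM in Abx morphine, 5864 to 6769 in Abx saline and 6509 to 6739 in H2O morphine libraries. Between morphine and saline in Abx mice 0 of the 18 were called by edgeR, with 6 at an unadjusted p under 0.05, 1 called by DESeq2 and 5 by limma voom (median log2 fold change -0.10, against -0.01 over all genes tested, of which 5.37% were called). Under morphine 5 of the 18 were lower in Abx than in H2O mice, among them Aqp4 (-0.47), S100b (-0.42), Mlc1 (-0.30) and Slc1a3 (-0.20), and 0 were higher, where 10.4% of all genes were called.

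Taken relative to the mean log2 CPM of these markers, Fabp7 was lowest in Abx morphine mice. The relative level differed by -0.93 on the log2 scale from Abx saline and by -1.26 from H2O morphine mice (pooled SD 0.234 and 0.169), and 5 of 5 libraries lay under both ranges. With 6 of the markers the values were -0.92 and -1.23. With the marker mean as a covariate in the fit, the differences of Fabp7 were -0.99 and -1.36. All these values share the libraries by which Fabp7 was chosen and are not separate evidence. Outside those libraries, the relative level in GF against H2O mice differed by -0.30 under saline and -0.44 under morphine (pooled SD 0.127 and 0.220). The relative values are descriptions with no test.

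**Figure D3:**
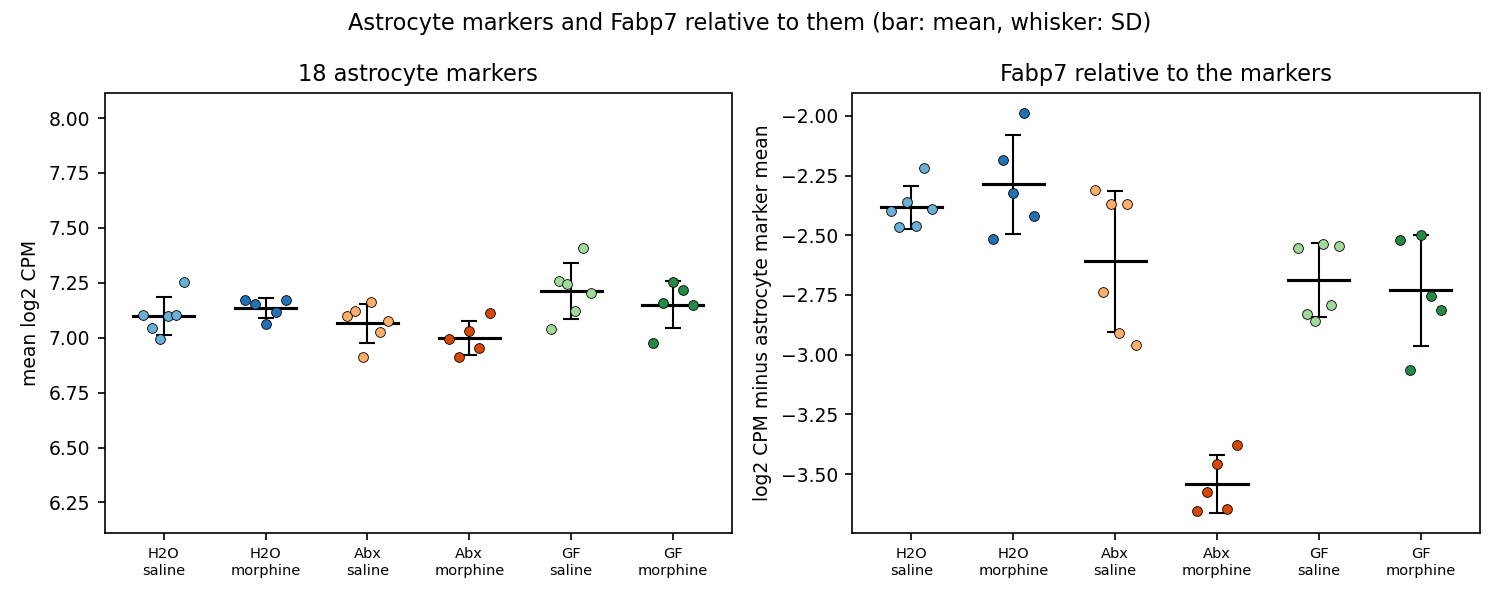
Mean log2 CPM of 18 astrocyte markers (left) and log2 CPM of Fabp7 minus that mean (right) in each library (points), by group, with mean (bar) and SD (whisker). The marker means of all groups overlap, and the relative level of Fabp7 in the 5 Abx morphine libraries lies under all others.

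Microglia markers also had their lowest levels in the Abx morphine libraries, by which Fabp7 was chosen. Their 10 genes summed to 416 to 487 CPM in Abx morphine, 493 to 594 in Abx saline and 526 to 590 in H2O morphine libraries, so that the Abx morphine libraries lay under both. Against H2O morphine mice 7 of 10 were lower in Abx morphine mice (0 higher), with Aif1 at -0.67 and the fractalkine receptor gene Cx3cr1 at -0.51, and against Abx saline mice 2 of 10 were. Of all genes, 10.4% and 5.37% were called in these comparisons. None of the 10 was at 0 in all libraries. In H2O saline libraries the 10 genes summed to 616 to 657 CPM, above the H2O morphine range. Fabp7 was not called between H2O morphine and H2O saline mice (0.14 ± 0.11, adjusted p = 0.562, edgeR). The mean log2 CPM of the 10 genes had a Pearson r of 0.67 with Fabp7 over 33 libraries (rho 0.36). That r was 0.49 without the 2 farthest libraries and 0.03 with group means subtracted. Markers of oligodendrocyte precursors, another cell type known for Fabp7, summed to 415 to 486 CPM in Abx morphine, 453 to 498 in Abx saline and 520 to 574 in H2O morphine libraries, with 1 of 10 lower with morphine in Abx mice (5.37% of all genes called) and 3 of 10 lower in Abx than in H2O mice under morphine (10.4%). The part of either cell type in the level of Fabp7 was not tested.

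Fabp5 was lower in germ-free mice. H2O saline libraries ran from 106 to 118 CPM with a median of 109.6, and GF saline libraries from 72.8 to 94.6 CPM with a median of 84.2. All GF saline libraries lay below all H2O saline libraries. The mean was 84.1 ± 7.11 against 110.0 ± 4.35 CPM (SD, n = 6 each), a 1.31-fold lower level (-0.39 ± 0.07, adjusted p = 1.67e-04, 6 of 6 libraries). In this comparison 15.0% of all genes were called lower and 4.56% lay wholly under the H2O range. Without GF saline replicate 1, the deep library, the difference was -0.43.

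Against Abx saline mice, whose libraries ran from 98.8 to 119 CPM, Fabp5 was 1.30-fold lower in GF saline mice (-0.38 ± 0.07, adjusted p = 2.93e-04, 6 of 6 libraries under the Abx range, where 12.9% of genes were called lower and 2.92% lay wholly below). Under morphine the GF libraries stood at 89.3, 81.3, 82.1, 113 and 80.2 CPM, the Abx libraries at 116, 123, 111, 109 and 111, and the H2O libraries at 97.0, 107, 96.3, 117 and 105. GF morphine replicate 5, at 113 CPM, lay within the range of the other groups and apart from its own. Fabp5 was lower in GF than in Abx mice under morphine (-0.35 ± 0.08, adjusted p = 0.00112, 4 of 5 libraries, 13.1% of genes called lower), and the value was -0.45 without GF morphine replicate 5. Against H2O mice the value was -0.23 ± 0.08 (adjusted p = 0.0730, 4 of 5). That value was -0.32 (adjusted p = 0.00597) without GF morphine replicate 5, and DESeq2 and limma voom called it (adjusted p = 0.0449 and 0.00215).

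Neither morphine nor antibiotics gave a called change of Fabp5. Morphine against saline was -0.07 ± 0.07 in H2O (95% interval -0.22 to 0.07, adjusted p = 0.658), 0.05 ± 0.07 in Abx (-0.10 to 0.20, adjusted p = 0.735) and 0.08 ± 0.08 in GF mice (-0.07 to 0.24, adjusted p = 0.839). In GF mice it was -0.01 without replicate 5 of the morphine group. Abx and H2O mice differed by less than 0.01 under saline (-0.15 to 0.14, adjusted p = 0.989) and by 0.12 ± 0.08 under morphine (-0.03 to 0.28, adjusted p = 0.324). The share of Fabp7 among the reads of the 3 genes was 6.39 ± 0.987% in Abx morphine libraries and 12.5 ± 1.98% to 16.4 ± 1.24% in the other groups (SD).

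Fabp3 was also lowest in germ-free mice. GF saline libraries ran from 30.6 to 39.2 CPM (median 33.9), H2O saline libraries from 36.1 to 51.0 (median 40.6) and Abx saline libraries from 38.8 to 52.9 (median 44.5). The GF range reached into both others. Means were 34.2 ± 3.52, 41.7 ± 5.57 and 44.4 ± 5.20 CPM (SD, n = 6 each). Fabp3 was 1.21-fold lower in GF than in H2O mice (-0.28 ± 0.09, adjusted p = 0.0219, 4 of 6 libraries under the H2O range) and 1.29-fold lower than in Abx mice (-0.37 ± 0.09, adjusted p = 0.00436, 5 of 6). Of all genes, 32.9% and 27.3% were called in these comparisons, 15.0% and 12.9% as lower. Without GF saline replicate 1 the values were -0.33 and -0.42. The call against H2O mice was lost without H2O saline replicate 8 (adjusted p = 0.0799), GF saline replicate 3 (0.0505) or replicate 6 (0.0623), with a replicate block (-0.19, adjusted p = 0.144) and with an offset for GC content and length (-0.11, adjusted p = 0.392). With that offset the call against Abx mice was lost as well (-0.23, adjusted p = 0.0720).

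Under morphine, Fabp3 in GF libraries stood at 34.0, 32.3, 32.5, 42.5 and 32.98 CPM and in Abx libraries at 52.6, 44.8, 43.1, 44.2 and 44.3 CPM. All 5 GF libraries lay under the Abx range, and replicate 5 was again the highest of the GF group. The difference was -0.39 ± 0.10 (adjusted p = 0.00506), or -0.48 without GF morphine replicate 5. In the comparison of all libraries 13.1% of all genes were called lower and 8.98% lay wholly under the Abx range. H2O morphine libraries stood at 39.2, 41.4, 51.4, 40.4 and 37.1 CPM, and GF against H2O was -0.27 ± 0.10 (95% interval -0.48 to -0.06, adjusted p = 0.110). Morphine left Fabp3 at 0.01 ± 0.10 in H2O, 0.05 ± 0.10 in Abx and 0.02 ± 0.10 in GF mice (adjusted p = 0.979, 0.843 and 0.980), with the widest interval from -0.19 to 0.23. No interaction of either Fabp5 or Fabp3 was called, with adjusted p from 0.490 to 0.985.

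The levels of Fabp3 went with markers of cortical glutamatergic neurons, cells of tissue next to this region. Their 9 genes summed to 1022 to 2366 CPM in GF saline, 1162 to 1874 in GF morphine and 1549 to 3977 in the other libraries, and none was at 0 in all libraries. These sums are carried by the most abundant genes of the list. The mean log2 CPM of the 9 was 2.14 ± 1.32 in GF saline, 1.27 ± 0.151 in GF morphine and 2.87 to 4.58 in the other groups (SD). Over 33 libraries the mean log2 CPM of these markers had a Pearson r of 0.81 with the log2 CPM of Fabp3 (Spearman rho 0.78), which was 0.76 without the 2 libraries farthest from the median and 0.68 after subtracting group means. For Fabp5 r was 0.55 and 0.03 after subtracting group means. Libraries share their depth and dissection, and these are descriptions. With the marker mean as a covariate, a setting chosen after the data were seen, Fabp3 was at -0.14, -0.18 and -0.10 in GF against H2O saline, Abx saline and Abx morphine mice (adjusted p = 0.162, 0.111 and 0.551). Fabp5 kept its 3 calls in that fit.

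Markers of the hypothalamus and pituitary also moved with the GF groups. Their 8 tested genes were called higher in GF mice for 4 of 8 against H2O saline and 5 of 8 against Abx saline mice, with 0 lower, where 32.9% and 27.3% of all genes were called. Under morphine 3 of 8 were higher against H2O and 4 of 8 against Abx mice, with 0 lower, where 5.78% and 28.1% of all genes were called. The 11 listed genes summed to 20.5 to 139 CPM in GF saline, 34.7 to 72.4 in GF morphine and 14.4 to 63.2 in the other libraries, and none was at 0 in all libraries. GF saline replicate 1 did not share the higher level: its mean log2 CPM of the 8 tested genes was 0.05, against 1.49 to 3.51 in the rest of its group. Over 33 libraries the mean log2 CPM of the 8 tested genes had a Pearson r of -0.64 with Fabp5 (rho -0.49, r -0.60 without the 2 farthest libraries and -0.11 with group means subtracted). With Fabp3 the r was -0.71 (rho -0.73, r -0.65 and -0.39). Their part in the lower Fabp5 and Fabp3 of GF mice was not tested.

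**Figure D4:**
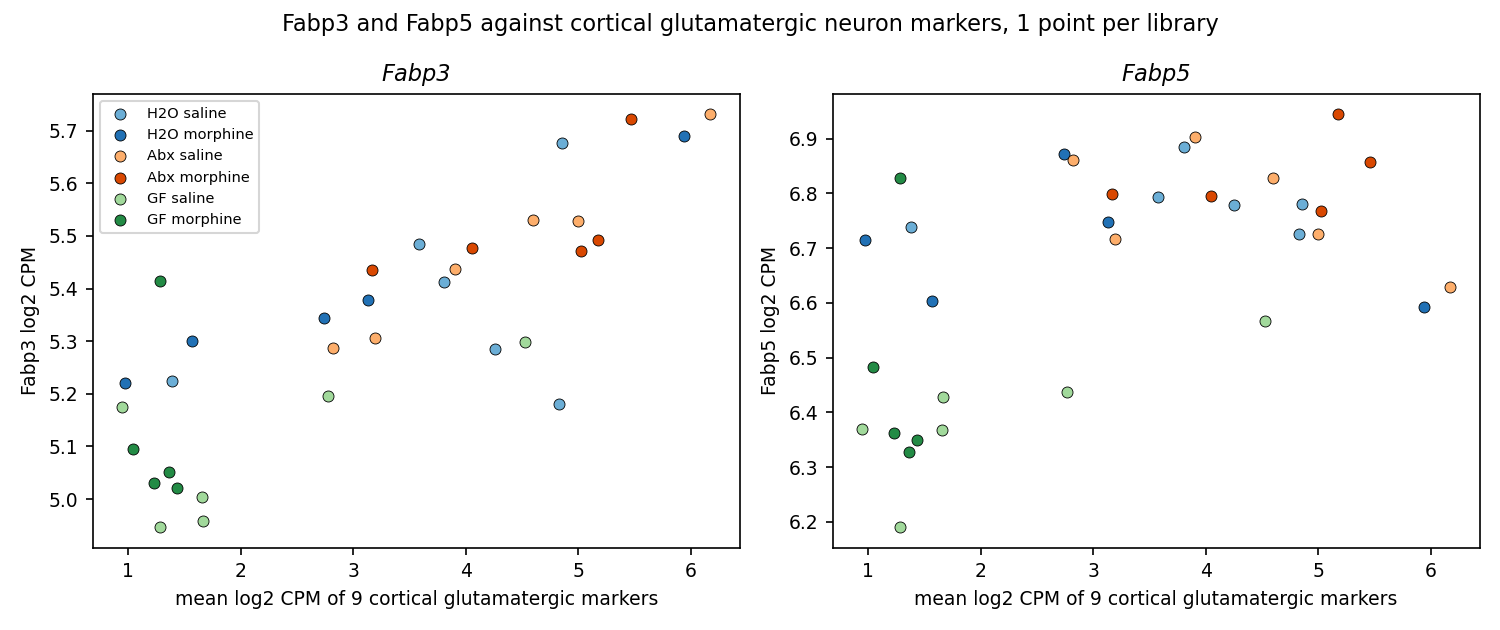
Log2 CPM of Fabp3 (left) and Fabp5 (right) against the mean log2 CPM of 9 cortical glutamatergic neuron markers, 1 point per library, coloured by group. Over all libraries Fabp3 rises along the axis (r = 0.81, 0.68 with group means subtracted), but not in every group. In GF morphine libraries the markers span only 1.04 to 1.44, and Fabp3 does not rise along them. Fabp5 separates GF from other libraries and shows an r of 0.03 with group means subtracted.

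Across the 33 libraries Fabp5 and Fabp3 had a Pearson r of 0.71 (rho 0.67; 0.65 without the 2 farthest libraries), which was 0.29 with group means subtracted. Fabp7 had an r of -0.20 with Fabp5 and -0.21 with Fabp3. By the highest r over 33 libraries among 12368 genes, those most like Fabp7 were the peroxisome assembly gene Pex6 (0.87), the microglial receptor gene Fcrls (0.84), Tmco3 (0.84), the aldehyde dehydrogenase gene Aldh7a1 (0.84) and the mitochondrial carrier gene Sfxn5 (0.84). With group means subtracted their r was 0.08 to 0.33, and without the Abx morphine libraries, by which Fabp7 was chosen, it was 0.54, 0.52, 0.35, 0.39 and 0.43. Pex6 stood at 46.1 CPM and Fcrls at 15.2 CPM in Abx morphine mice, against 67.9 and 27.3 CPM in Abx saline mice. Most like Fabp5 were Rpp25 (0.89), B3gnt1 (0.88), the kinase-domain gene Fastk (0.88), the proteasome subunit gene Psma7 (0.88) and the RNA polymerase subunit gene Polr1c (0.86), with 0.64 to 0.69 after subtracting group means. Most like Fabp3 were the sugar isomerase gene Mpi (0.89), the transcription regulator gene Id2 (0.88), Bok (0.87), Klhl40 (0.87) and Cryl1 (0.87), with 0.73 to 0.83.

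Other genes of the pathway were read from lists. In the comparison of morphine with saline in Abx mice 5.37% of all genes were called, and the counts below stand beside that share. The call count was 784 genes, and 265 without Abx morphine replicate 1. Among 17 genes of fatty acid oxidation 0 rose and 3 fell: the medium-chain dehydrogenase gene Acadm (-0.30 ± 0.07, adjusted p = 0.00881), the carnitine transferase gene Cpt1a (-0.27 ± 0.08, adjusted p = 0.0386) and the trifunctional enzyme gene Hadha (-0.21 ± 0.06, adjusted p = 0.0294). The list's median was -0.11, against -0.01 over all genes tested, and 1 gene was called when no filter on low counts was used. Among 15 genes of fatty acid uptake and activation 2 rose and 0 fell. Mfsd2a, which carries docosahexaenoic acid into the brain, rose from 33.3 ± 4.43 to 45.8 ± 2.80 CPM (0.46 ± 0.09, adjusted p = 0.00203), and the acyl-CoA synthetase gene Acsl3 rose by 0.22. Of 14 genes of synthesis and elongation 1 rose, the acetyl-CoA carboxylase gene Acacb (0.55), and 0 fell.

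Lipid droplet genes moved in both directions in the same comparison, with 2 of 13 higher and 1 lower. The coat protein gene Plin4 rose from 17.2 ± 13.5 to 56.1 ± 7.44 CPM (1.70 ± 0.33, adjusted p = 0.00285), and the triglyceride lipase gene Pnpla2 rose by 0.45. Plin2, the coat protein gene of most tissues, fell from 7.98 ± 0.622 to 5.31 ± 0.233 CPM (-0.59 ± 0.10, adjusted p = 0.00113). Plin2 had its lowest mean in the same group as Fabp7, at 7.98 to 8.73 CPM in the other groups. Of 10 lipid receptor genes, among them the PPAR and retinoid receptor genes to which carriers deliver ligand, 0 passed in edgeR, with 0 at an unadjusted p under 0.05, 0 called by DESeq2 and 1 by limma voom, and the smallest p belonged to Rarg (-0.20 ± 0.10, adjusted p = 0.274). Of 10 endocannabinoid genes 1 fell, the synthesis gene Daglb (-0.23).

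Genes known to act upstream of Fabp7 were read as well. Of 16 such genes, Notch signalling and POU, NFI and SOX factors among them, 0 rose and 1 fell between morphine and saline in Abx mice, a share near the 5.37% of all genes called. The 1 was Pou3f3 (Brn1), at 63.4 ± 5.37 against 76.7 ± 4.31 CPM (-0.27 ± 0.07, adjusted p = 0.0148). It was also the 1 member lower in Abx than in H2O mice under morphine (-0.25 ± 0.07, adjusted p = 0.0166), with 0 higher and 10.4% of all genes called. In GF against H2O saline mice, where Fabp7 was not called, 7 of the 16 fell and 2 rose, in a comparison with 32.9% of genes called. The Notch target Hes5 (-0.89 ± 0.17, adjusted p = 2.58e-04), Pax6 (-0.85 ± 0.22, adjusted p = 0.00392) and Hey1 (-0.45 ± 0.09, adjusted p = 7.23e-04) fell, and Rbpj (0.53 ± 0.07, adjusted p = 9.54e-06) and the clock repressor gene Nr1d2 (0.48 ± 0.08, adjusted p = 6.51e-05) rose. Clock genes were read because Fabp7 RNA is known to cycle over the day. Of 16, 2 rose and 0 fell with morphine in Abx mice, Ciart (0.45 ± 0.09) and Cry1 (0.41 ± 0.11), and the part of the hour of collection was not tested.

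**Figure D5:**
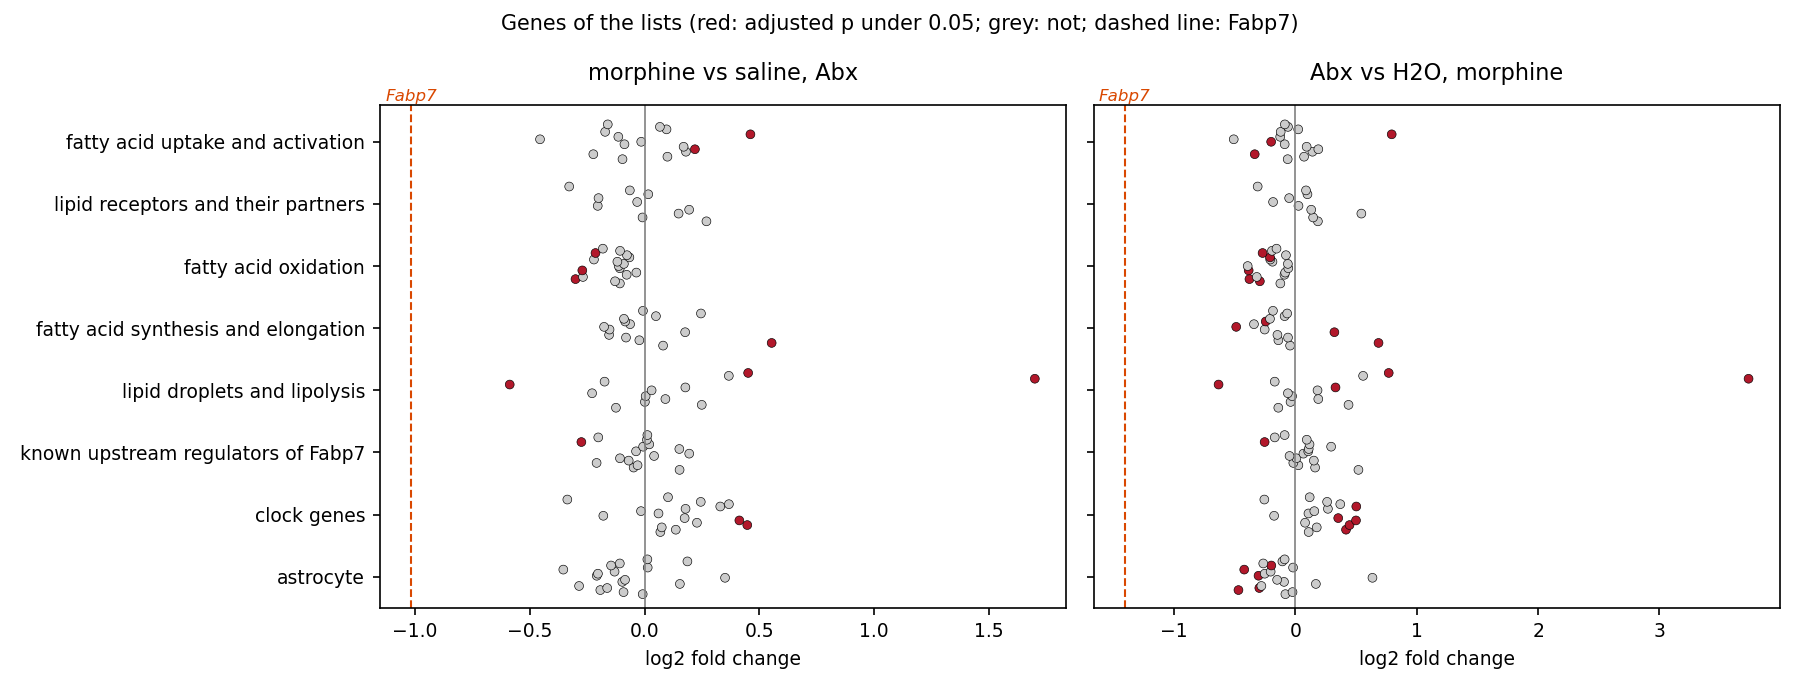
Log2 fold change of each tested gene (points) of 8 lists (rows) between morphine and saline in Abx mice (left) and between Abx and H2O mice under morphine (right). Red points passed at an adjusted p under 0.05, grey did not, and the dashed line marks Fabp7 at -1.02 and -1.41, outside the points of every list on the lower side.

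Between Abx and H2O mice under morphine the lists gave more calls, as did all genes (10.4%). Fatty acid oxidation had 5 of 17 lower and 0 higher (median -0.19), with Cpt1a (-0.39 ± 0.08, adjusted p = 0.00197) and Acadm (-0.38 ± 0.07, adjusted p = 5.25e-04) in front. Lipid droplets had 3 of 13 higher and 1 lower, with Plin4 at 4.14 ± 1.10 CPM in H2O morphine mice and 3.73 ± 0.41 higher on the log2 scale in Abx mice. Mfsd2a rose by 0.79 ± 0.09 (adjusted p = 6.3e-07), and the fatty acid activating genes Acsbg1 (-0.34) and Acsl6 (-0.20) fell, of 15 genes of uptake. Of the genes of synthesis the elongase gene Elovl6 (-0.49) and the desaturase gene Fads1 (-0.25) fell and Acacb (0.68) and Elovl4 (0.32) rose. Clock genes had 5 of 16 higher and 0 lower, among them Per1 (0.50) and Cry1 (0.50).

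Of the wider family of lipid carriers, Crabp1 and Crabp2, which bind retinoic acid, passed the filter. Crabp1 was higher in GF than in Abx mice under morphine (0.73 ± 0.19, adjusted p = 0.00486, 28.1% of all genes called) and under saline (0.46 ± 0.17, adjusted p = 0.0483, 27.3% called). It was also higher in GF than in H2O mice under morphine (0.63 ± 0.19, adjusted p = 0.0448, 5.78% called). Crabp2 passed in no pairwise comparison. Neither was called with morphine in any microbiome state.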

How the data were processed

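RNA of the nucleus accumbens was measured in 33 libraries of 6 groups, with the group and replicate number from the sample titles. The authors deposited a table of read counts per gene symbol, which are whole numbers. They also deposited a table of a normalised signal, which for 10852 genes is the count over a single number per library, and no test used it. The submitters' processing notes name edgeR, FastQC and STAR 2.4.0. The sources used here name no genome build, annotation, strand setting or counting program, so genes overlapping a member on the other strand cannot be told apart from it. Per the labels' protocols, cDNA was made with a SMARTer kit and sheared. Reads given to no gene, 19.3% to 35.4% of those tallied, were left out. Of 27 gene names turned into dates, 19 were restored and 8 left out. No 2 libraries of a group agreed within sampling noise (a chi-squared statistic of 3.19 to 38.7 for each degree of freedom).

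The tests used edgeR 4.0.16 (R 4.3.3, limma 3.58.1): filterByExpr at a minimum count of 10, TMM factors, and 1 quasi-likelihood fit of 6 group means (27 residual degrees of freedom), with two-sided tests and Benjamini-Hochberg adjustment over 14602 genes, called at an adjusted p under 0.05. Labels do not say which mice shared a cage, so p-values measure the spread between libraries. Log2 CPM used a prior count of 2. Transcript lengths are those of GENCODE M21 and promoters those of RefSeq. Same-numbered libraries did not deviate together on average (66 pairs, mean r -0.000700, from -0.473 to 0.462, against a mean of 0.000421 in other pairs). A pairing in only some groups could be hidden in this mean, and the main fit used none. Named genes are the members, list genes past the threshold with the largest change (at most 3 in each direction, mean of at least 2 CPM) or the smallest p, and the 5 genes most like each member, gene models, pseudogenes, ribosomal protein and mitochondrial genes left out; marker genes named beside them were chosen after their values were seen. The members and the lists were chosen with earlier results of these data known. Alternatives were upper-quartile and RLE factors, no filter, DESeq2 1.42.0, limma voom with quality weights, fits of the groups compared alone, a replicate block, an astrocyte covariate and each library left out. A covariate of cortical markers and an offset for GC content and length were added after the data were seen. Some genes of the lists are not reported here. Scripts were tested on simulated data.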

Additional observations from a re-analysis of the deposited data

Results flagged for a closer look

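Among the 18 groups of values (3 genes in 6 groups), 3 held a library past Dixon's 95% limit for a group of that size. Chance alone sets apart about 1 in 20 such groups. The 3 had 5 libraries each, for which the limit is a gap of 0.71 of the group's range. Fabp5 in GF morphine replicate 5 was 113 CPM, with the nearest other library at 89.3 CPM and a gap of 0.727 of the range. Fabp3 in the same library was 42.5 CPM, against 34.0 for the nearest, with a gap of 0.834. The mean log2 CPM of the 9 cortical markers in that library was 1.28, within its group. Its share of reads in no gene was 35.4%, against 22.1% to 27.0% in the rest of the group, and its counts differed from theirs by a chi-squared statistic of 17.03 to 25.7 for each degree of freedom, against 4.01 to 9.56 among the others. Fabp3 in Abx morphine replicate 1 was 52.6 CPM, against 44.8 for the nearest, with a gap of 0.814, and that library had a cortical marker mean of 5.47.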

How the results depend on the processing

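Of 31 tested differences of the 3 genes, none changed sign past the threshold. Of 310 values under the alternatives, 299 kept their side of the threshold, as did 411 of 420 with 1 library left out. Fabp7, described without a test, was -1.03 to -0.99 between morphine and saline in Abx mice (-1.09 to -0.94 with a library left out) and -1.43 to -1.36 between Abx and H2O mice under morphine. For Fabp3, the call in GF against H2O saline mice was lost with a replicate block (-0.19, adjusted p = 0.144), with the cortical covariate (-0.14) and with the GC and length offset (-0.11), and it ran from -0.33 to -0.21 with a library left out. Against Abx saline mice Fabp3 was -0.18 with the cortical covariate and -0.23 with the offset, and against Abx morphine mice it was -0.10 with the covariate. The covariate and the offset were chosen after seeing the data. Fabp5 in GF against H2O mice under morphine was called by DESeq2 (-0.23) and limma voom (-0.32) and with the offset (-0.33), and ran from -0.32 to -0.18 with a library left out. Fabp7 in that comparison was not called in a fit of both groups alone (-0.43) or with the cortical covariate (-0.42), ran from -0.52 to -0.35 with a library left out, and was -0.46 (adjusted p = 0.0106) with the replicate block. Beside the Fabp3 call above, the replicate block changed no other call of the 3 genes.

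Called genes over the whole table moved by more than 1.5 times in most comparisons. The count for morphine against saline in Abx mice was 784, from 265 without Abx morphine replicate 1 to 2462 with limma voom. For Abx against H2O under morphine it was 1518, at most 3548 with limma voom, and under saline 17, from 4 with the replicate block to 187 with limma voom. GF against H2O mice gave 4807 under saline, at least 2392 with the offset, and 844 under morphine, at least 307 without H2O morphine replicate 3. GF against Abx mice gave 3990 under saline, at least 2028 with the offset, and 4096 under morphine, at least 2002 with the cortical covariate. Of the interactions, Abx minus H2O gave 16 (3 without H2O morphine replicate 2, 172 with limma voom) and GF minus Abx 313 (43 in a fit of the groups compared alone). Over 14488 genes the log2 fold change of GF against H2O saline mice had a Spearman rho of -0.51 with GC content and 0.34 with transcript length. Of the 5 genes most like Fabp7 by Pearson r, 0 were among the 5 by Spearman rho, against 2 for Fabp5 and 3 for Fabp3. Fabp7 rests on 110 to 460 reads a library, which limits differences smaller than those called.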
